A study of Mus musculus with 8 samples.

Results

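The 10 genes described here are carboxylesterases of the Ces1, Ces2 and Ces3 families in mouse liver. They were chosen by symbol, as the rows Ces1c, Ces1d, Ces1e, Ces1f, Ces1g, Ces2a, Ces2c, Ces2e, Ces2g and Ces3a of a table of 11784 genes, and all 10 were found. The rule uses no measured value, although the members were proposed with earlier results of these data known. To determine how the liver responds to reduced dietary protein, male C57BL/6J mice received an amino acid-defined Control diet (n = 4) or a Low AA diet (n = 4), in which amino acids supply a smaller share of the calories and carbohydrate makes up the difference. No transgene or deletion is named for either group. Both began the diets at 9 weeks of age, ate them for 4 months and were fasted for about 16 hours before the liver was collected. Poly(A) RNA of each liver was sequenced, and a sample is the whole liver RNA of 1 mouse. The authors deposited whole numbers that appear to be scaled and rounded read counts, called scaled read counts here, and they total 28361406 to 29485422 per Control mouse and 27876664 to 30799385 per Low AA mouse.

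Carboxylesterases are serine hydrolases that cleave ester and amide bonds. Most are held in the lumen of the endoplasmic reticulum, and in liver they act both on drugs and other foreign esters and on the body's own lipids, including the triglyceride that hepatocytes store or package into very-low-density lipoprotein (VLDL). The mouse has many more of these genes than the human because the Ces1 and Ces2 families expanded by tandem duplication.

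All 10 members lie on chromosome 8 (GRCm38, GENCODE M21 annotation), in a pair of arrays. The 8 annotated Ces1 genes occupy chr8:93020214-93379725 on the minus strand. The genes from Ces2a to Ces4a occupy chr8:104734003-105150109 on the plus strand, and 8 of them are Ces2 genes, of which Ces2d-ps is annotated as a pseudogene. Coding sequences of the Ces1 members were 72.1% to 81.5% identical to each other, those of the Ces2 members 81.3% to 85.1%, and those of a Ces1 and a Ces2 member 54.0% to 57.5%. Reads from such genes can be shared, and how the counting divided them is not stated. Of the 100-base stretches of the Ces2c transcript, 15.7% occurred without mismatch in the pseudogene Ces2d-ps, and 9.09% of those of Ces3a occurred in Ces3b. The share was 1.39% for Ces1c, with Ces1b, and 0 for the other 7 members.

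Differences between diets were tested on log2(value + 1) with limma over all 11784 genes, with Benjamini-Hochberg adjustment. A gene is called here at an adjusted p under 0.05, and all fold changes are Low AA minus Control on the log2(value + 1) scale, which understates the change of low genes. The members did not move as a block. Ces2c fell on the Low AA diet and Ces2g rose, Ces1d and Ces2a separated the diets without being called, and the other 6 members overlapped between diets. Thus 2 of 10 members were called, against 0.399% of all genes. The call for Ces2c compares with 0.297% of all genes called lower, and that for Ces2g with 0.102% called higher. Values of the 4 Low AA mice lay entirely above or entirely below those of the 4 Control mice in 4 of 10 members, against 6.81% of all genes. Ces2a and Ces2c lay below, as did 3.55% of all genes, and Ces1d and Ces2g lay above, as did 3.26%. The study itself drew these 4 genes as changed in the same mice, so their separation is not independent evidence. Its heatmap was based on genes differing at q under 0.05 (FDR) in its own comparison, which is not the limma fit used here. Over the 10 members 5 log2 fold changes were positive and 5 negative, with a median of 0.03, and the median over all genes was 0.0023. The 4 other Ces rows of the table, Ces1b, Ces2d-ps, Ces3b and Ces4a, all had negative log2 fold changes, and 0 were called. In RNA of whole liver, fewer cells that express a gene and less RNA per cell cannot be told apart.

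**Figure D1:**
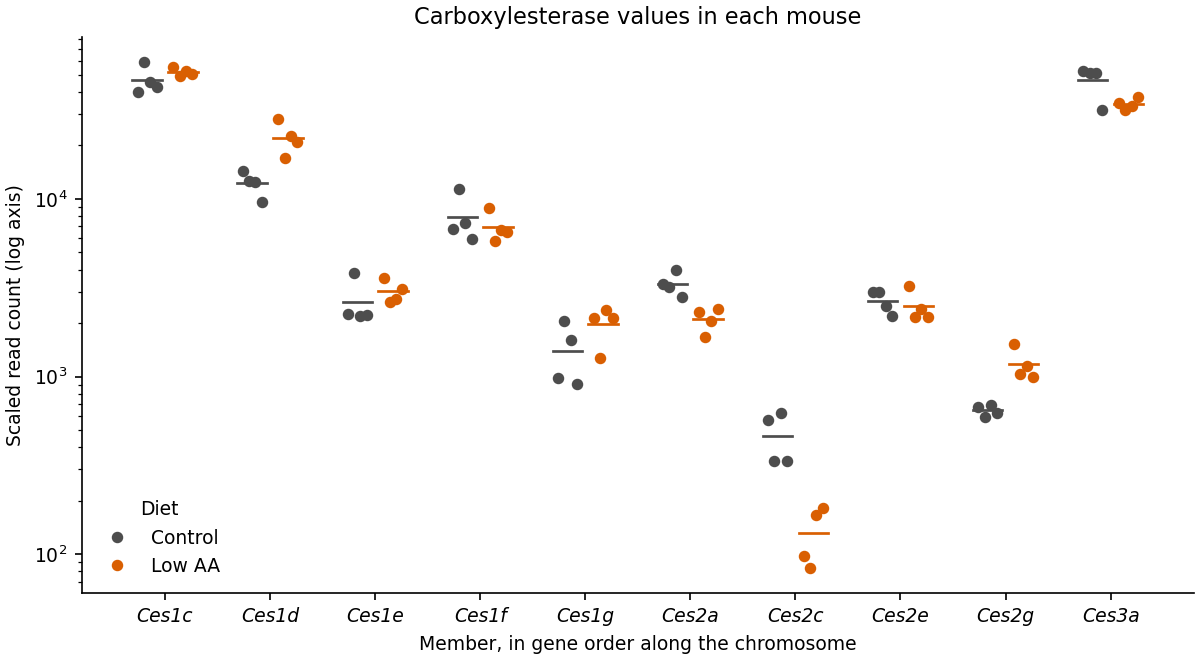
Scaled read count (log axis) of each member in each of the 8 mice, with 1 point per mouse and a bar at the mean of each diet. The 4 Low AA points of Ces2c, 84 to 181, lie below all Control points, 334 to 622, those of Ces2g and Ces1d lie above theirs, and those of Ces2a lie below.

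**Figure D2:**
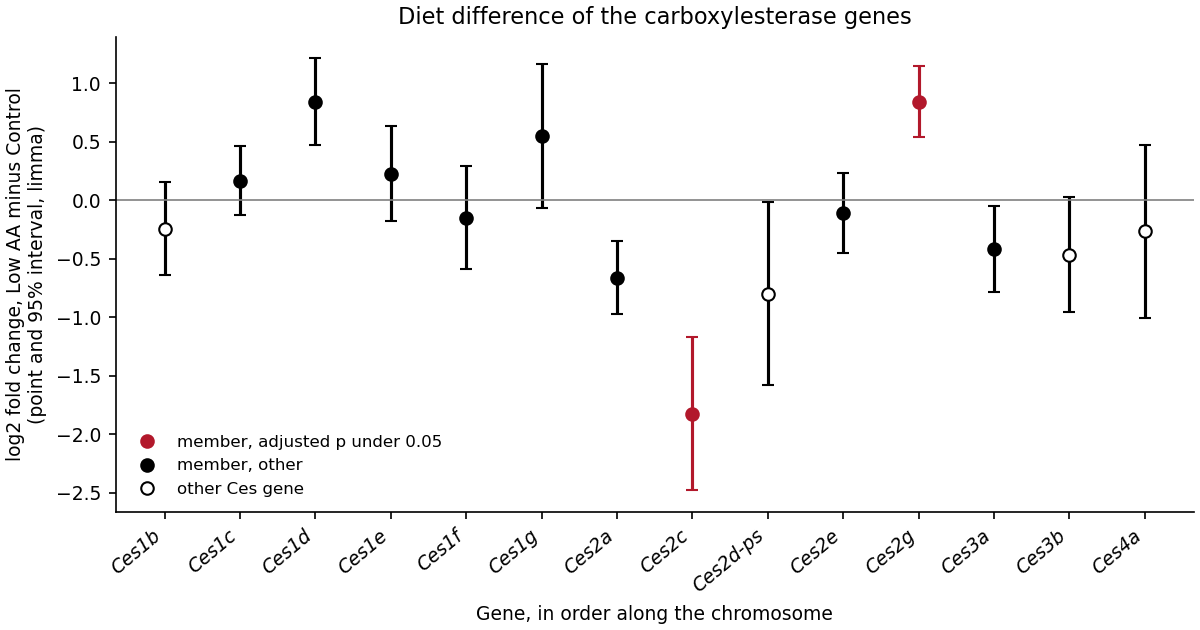
log2 fold change (Low AA minus Control) with its 95% interval from limma for the 14 carboxylesterase genes of the table, in gene order along chromosome 8. Ces2c at -1.82 and Ces2g at 0.84 are the called genes, and they lie in the same array.

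The Ces2 enzymes hydrolyse drugs and other xenobiotic esters, and several also hydrolyse acylglycerols. Ces2c was the member with the smallest p. Its scaled read counts were 568, 334, 622 and 336 in Control mice F129, F2212, F7111 and F2110, and 97, 84, 167 and 181 in Low AA mice H1126, H828, H817 and H1315. The Control values form a high pair, F129 and F7111, and a low pair, and even the low pair is above every Low AA mouse. The Low AA mean of 132 ± 48.8 (SD, n = 4) was 3.52-fold lower than the Control mean of 465 ± 152 (SD, n = 4). The log2 fold change was -1.82 (standard error 0.29, 95% interval -2.48 to -1.17, limma adjusted p = 0.0369). The exact permutation test on this gene alone gave p = 0.0286 (two-sided), the smallest that 4 mice against 4 allow. Every gene without overlap between diets, 6.81% of all genes, has this p, so it adds nothing to the separation. The pseudogene that shares sequence with it, Ces2d-ps, was listed at 29 to 40 in Control mice and 9 to 31 in Low AA mice, and with the values of both summed the log2 fold change was -1.68 (standard error 0.25, limma adjusted p = 0.0204). The call for Ces2c was not made without Low AA mouse H1126, H828 or H817 or without Control mouse F129 or F7111, where log2 fold changes were -1.70, -1.63, -1.96, -1.71 and -1.66 and limma adjusted p ranged from 0.0672 to 0.0962.

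Ces2g is encoded 107235 bases downstream of Ces2c on the same strand. Its scaled read counts were 672, 594, 689 and 624 in the Control mice, in the order given for Ces2c, and 1515, 1035, 1142 and 994 in the Low AA mice. Every Low AA mouse was above every Control mouse, H1126 was highest, and the Control mice lay close together. The mean was 1172 ± 237 (SD, n = 4) against 645 ± 43.6 (SD, n = 4), 1.82-fold higher in Low AA mice, and the log2 fold change was 0.84 (standard error 0.14, 95% interval 0.54 to 1.15, limma adjusted p = 0.0369). Leaving out Low AA mouse H1126, H828 or H817 or Control mouse F129, F7111 or F2110 ended this call, with log2 fold changes of 0.71, 0.90, 0.85, 0.86, 0.88 and 0.83 and limma adjusted p from 0.0539 to 0.127.

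The pair is described further by its ratio in each liver, without correction for transcript length and with no test, since the separation of each gene already fixes that of the ratio. The ratio of Ces2g to Ces2c was 1.18, 1.78, 1.11 and 1.86 in Control mice F129, F2212, F7111 and F2110 and 15.6, 12.3, 6.84 and 5.49 in Low AA mice H1126, H828, H817 and H1315. On the log2 scale the difference of the pair was 3.19 ± 0.70 in Low AA and 0.53 ± 0.39 in Control mice (SD, n = 4 each). A ratio within a mouse does not depend on how that mouse's values were scaled.

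**Figure D3:**
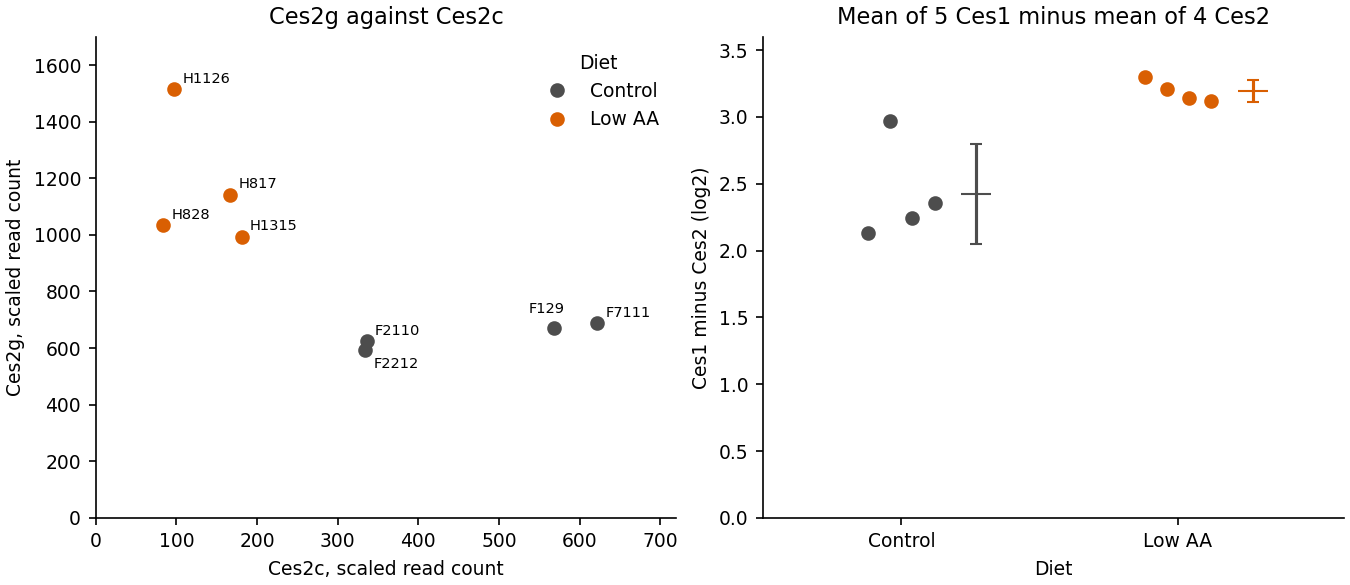
Left, scaled read counts of Ces2g against Ces2c, 1 point per mouse; right, mean log2(value + 1) of the 5 Ces1 members minus that of the 4 Ces2 members in each mouse, with mean ± SD of each diet beside the points. The Low AA mice hold low Ces2c and high Ces2g, and Control mouse F2212, at 2.97 on the right, is the Control mouse nearest to the Low AA mice.

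Ces2a, the first gene of the Ces2 array, had scaled read counts of 3328, 3212, 3992 and 2809 in the Control mice and 2302, 1678, 2067 and 2396 in the Low AA mice. All Low AA mice were below all Control mice, with H828 lowest, at means of 2111 ± 320 and 3335 ± 491 (SD, n = 4 each). The log2 fold change of -0.66 (standard error 0.14, 95% interval -0.97 to -0.35) missed the threshold after adjustment (limma adjusted p = 0.0847). The gene taken alone gave p = 0.0286 (exact permutation test, two-sided), which the lack of overlap already fixes. Ces2e had 2195 to 3005 in Control mice and 2160 to 3236 in Low AA mice. These ranges nearly coincide, and the 95% interval of its log2 fold change, -0.45 to 0.24, holds 0 (limma adjusted p = 0.849). The pseudogene Ces2d-ps, with an interval of -1.58 to -0.02, was not called (limma adjusted p = 0.416).

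The region from 250 bases before to 50 bases after the start of Ces2a, Ces2c and Ces2g is printed here, because these are the Ces2 genes whose diets did not overlap and they stand in 1 array with opposite signs. Sequences are from RefSeq (GRCm38.p6), 5′ to 3′ on the gene's strand, in lower case, and capitals mark a match to a searched motif.
Ces2a, chr8:104733753-104734052, + strand: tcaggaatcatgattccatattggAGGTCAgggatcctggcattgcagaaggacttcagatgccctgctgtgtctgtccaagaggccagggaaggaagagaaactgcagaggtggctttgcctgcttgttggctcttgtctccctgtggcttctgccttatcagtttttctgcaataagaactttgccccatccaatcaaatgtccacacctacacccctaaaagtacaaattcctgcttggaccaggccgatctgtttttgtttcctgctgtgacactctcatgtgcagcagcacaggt
Ces2c, chr8:104846818-104847117, + strand: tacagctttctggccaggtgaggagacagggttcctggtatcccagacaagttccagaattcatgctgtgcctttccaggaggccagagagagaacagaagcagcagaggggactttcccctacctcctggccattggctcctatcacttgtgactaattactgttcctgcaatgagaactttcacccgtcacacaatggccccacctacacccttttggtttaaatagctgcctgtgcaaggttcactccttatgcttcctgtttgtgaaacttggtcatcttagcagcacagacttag
Ces2g, chr8:104961468-104961767, + strand: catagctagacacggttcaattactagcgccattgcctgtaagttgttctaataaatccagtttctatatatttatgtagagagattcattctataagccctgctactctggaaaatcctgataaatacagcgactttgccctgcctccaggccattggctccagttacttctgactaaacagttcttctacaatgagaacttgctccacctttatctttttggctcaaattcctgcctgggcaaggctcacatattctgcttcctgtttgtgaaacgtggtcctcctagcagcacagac
RefSeq start regions were matched for 7 of the 10 members, and Ces1d, Ces1f and Ces3a were not among them. The promoters of Ces2a and Ces2c were 64.6% identical, those of Ces2c and Ces2g 59.2%, and those of Ces2a and Ces2g 50.2%, while promoters of Ces1 and Ces2 members shared 41.0% to 44.5%. Both strands were searched for the nuclear receptor motifs AGGTCA and AGTTCA, the TATA motif TATAAA and the STAT motif TTCNNNGAA. Among 32851 mouse promoters of this length these were present in 16.26%, 13.99%, 13.62% and 8.30%. Ces2a holds AGGTCA 226 bases before its start, and Ces1g holds TATAAA on the opposite strand 26 bases before its start. None of the 4 motifs occurred in the windows of Ces2c, Ces2g, Ces2e, Ces1c or Ces1e, which says only that these letters are not there.

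The Ces1 enzymes include the main triglyceride hydrolases of the hepatocyte endoplasmic reticulum. Ces1d, also called triacylglycerol hydrolase, mobilises stored triglyceride for VLDL assembly. Its scaled read counts were 14276, 12608, 12471 and 9646 in Control mice F129, F2212, F7111 and F2110 and 28130, 16916, 22556 and 20834 in Low AA mice H1126, H828, H817 and H1315. The diets did not overlap, and the gap lay between Control mouse F129 and Low AA mouse H828. Low AA mice had a mean of 22109 ± 4656 (SD, n = 4) against 12250 ± 1920 (SD, n = 4), which is 80.5% higher. Its log2 fold change of 0.84 (standard error 0.17, 95% interval 0.47 to 1.21) was close to that of Ces2g in size but missed the threshold (limma adjusted p = 0.0754). As a single gene it gave p = 0.0286 (exact permutation test, two-sided), which the lack of overlap already fixes.

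The other Ces1 members overlapped between diets. Ces1g, a hepatic esterase tied to lipid secretion, had 985, 2064, 1608 and 904 in the Control mice and 2132, 1264, 2360 and 2136 in the Low AA mice. All Low AA mice except H828 were above all Control mice, and the 95% interval of the log2 fold change was -0.07 to 1.17 (limma adjusted p = 0.493). Ces1c, whose product is secreted and supplies the esterase activity of mouse plasma, had 40138 to 59031 in Control and 49415 to 55216 in Low AA mice, an interval of -0.13 to 0.46 (limma adjusted p = 0.701). Ces1e, the egasyn that holds beta-glucuronidase in the endoplasmic reticulum, had 2203 to 3821 in Control and 2616 to 3588 in Low AA mice, an interval of -0.18 to 0.64 (limma adjusted p = 0.705). Ces1f, a further lumenal triglyceride hydrolase, had 5926 to 11395 and 5800 to 8851, an interval of -0.59 to 0.30 (limma adjusted p = 0.842). These intervals leave room for changes of either sign. Of the 5 Ces1 members 0 were called and 4 log2 fold changes were positive, with a median of 0.23. Of the 4 Ces2 members 2 were called and 1 was positive, with a median of -0.38.

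Control mouse F2212 bears on the Ces1 values. It was the highest Control mouse in 4 of 5 Ces1 members, at 59031 for Ces1c against 40138 to 45317 in the other Control mice, at 3821 for Ces1e against 2203 to 2254, at 11395 for Ces1f against 5926 to 7366 and at 2064 for Ces1g against 904 to 1608. The same liver had 57733 for Saa1, an acute-phase gene, against 68 to 2818 in the other 7 mice, and 36587 for Cela1, an elastase of pancreatic acinar cells, against 130 to 288. Cela1 was the only acinar marker of 9 listed that is in the table. Without this mouse, the Low AA values lay above all Control values for Ces1c and Ces1e too, a separation that leaving out a mouse can only add to. The log2 fold change of Ces1e was then 0.42 (limma adjusted p = 0.171, where all alternatives ranged from 0.171 to 0.909). That of Ces1f then turned from -0.15 to 0.05 (limma adjusted p = 0.937, where all alternatives ranged from 0.692 to 0.967). Any part of this mouse's other genes in these values was not tested. Hepatocyte markers, 5 of 6 in the table, summed to 1920388 to 2203357 in Control and 2106948 to 2324909 in Low AA mice. The summed levels of the macrophage, stellate cell, endothelial cell, bile duct, adipocyte and blood markers also overlapped between diets, and 0 of the markers were called. The single markers named next were chosen after their values were seen, for standing lower on the Low AA diet, and do not stand for their lists. The stellate cell list summed to 6156 to 7754 in Low AA and 6186 to 7558 in Control mice. The bile duct list summed to 826 to 1316 in Low AA and 1124 to 2265 in Control mice, and the blood list to 4594 to 6584 and 4390 to 13960. Col1a1, of the stellate cell list, had 37 to 69 in Low AA and 70 to 147 in Control mice (limma adjusted p = 0.148). Alas2, of the blood list, had 1140 ± 191 and 1614 ± 352 (SD, n = 4 each) and did not overlap either (limma adjusted p = 0.266). Sox9 and Krt19, of the bile duct list, had 20 to 69 and 16 to 30 in Low AA mice. In Control mice they had 63 to 124 and 27 to 70, so the diets overlapped. Markers that stood higher are not counted here. The part of these markers in the values of the carboxylesterases was not tested.

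Ces1 and Ces2 members were then set against each other within each mouse. The mean log2(value + 1) of the Ces1 members minus that of the Ces2 members was 2.13, 2.97, 2.25 and 2.36 in Control mice F129, F2212, F7111 and F2110, and 3.30, 3.21, 3.14 and 3.12 in Low AA mice H1126, H828, H817 and H1315. All Low AA mice were above all Control mice, with F2212 closest. The means were 3.19 ± 0.08 and 2.43 ± 0.37 (SD, n = 4 each), a difference of 0.77, made of 0.33 in the Ces1 mean and -0.44 in the Ces2 mean. The value describes the members and carries no test. It depends on averaging. With the median of the members in place of the mean it was -0.38, because the Ces1 median is then Ces1f in every mouse and the Ces2 median always holds Ces2g.

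Ces3a, a liver carboxylesterase encoded after the Ces2 array, had 52262, 51488, 50976 and 31676 in the Control mice and 34699, 31595, 33515 and 37546 in the Low AA mice. Of the Control mice 3 lay together above every Low AA mouse, and F2110 lay among the Low AA mice. The log2 fold change was -0.41 (95% interval -0.78 to -0.05, limma adjusted p = 0.356), and without F2110 it was -0.59 (limma adjusted p = 0.0825, the lowest over all alternatives, which reached 0.679). F2110 was the lowest Control mouse in 6 of 10 members. For the closely related Ces3b the log2 fold change was -0.47 (limma adjusted p = 0.457), and Ces3a and Ces3b summed gave -0.43 (limma adjusted p = 0.350). Ces1b at -0.24 (limma adjusted p = 0.678) and Ces4a at -0.26 (limma adjusted p = 0.825) complete the carboxylesterases of the table.

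To order the members by level, values were divided by transcript length. In Control mice the scaled count per kilobase (kb) was highest for Ces1c, 25565 ± 4632, and Ces3a, 22776 ± 4870 (SD, n = 4 each), and these changed places from mouse to mouse. Next came Ces1d at 6113 ± 958 and Ces1f at 4083 ± 1260, whose ranges overlapped although Ces1d was above Ces1f in all 4 mice. Ces2a, Ces1e, Ces2e and Ces1g followed at 1702 ± 251, 1267 ± 384, 990 ± 148 and 582 ± 230 (SD, n = 4 each), each overlapping the next. Within mice, Ces2a was above Ces1e and Ces1e above Ces2e in 3 of 4, and Ces2e was above Ces1g in all 4. Ces2c and Ces2g were lowest, at 236 ± 77.0 and 226 ± 15.3 (SD, n = 4 each), and could not be ordered, each being above the other in 2 of 4 mice. On the Low AA diet, the ranges of Ces1c, Ces3a, Ces1d, Ces1f and Ces1e each cleared the next, at 28415 ± 1424, 16783 ± 1218, 11032 ± 2324, 3618 ± 682 and 1454 ± 213 per kb (SD, n = 4 each). Ces2a, Ces2e, Ces1g and Ces2g overlapped in turn at 1077 ± 163, 924 ± 188, 826 ± 203 and 410 ± 83.0 per kb (SD, n = 4 each), and Ces2c at 67.1 ± 24.8 lay clear below. Within these mice, Ces2a was above Ces2e in 3 of 4, Ces2e above Ces1g in 2 of 4, and Ces1g above Ces2g in all 4.

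The members' summed signal per kb was 64607 ± 5550 in Low AA and 63540 ± 10180 in Control mice (SD, n = 4 each), a difference smaller than the spread between mice. Its make-up differed. Ces1d supplied 16.9% ± 2.14 of it in Low AA mice (14.6% to 19.7%) and 9.68% ± 1.23 in Control mice (8.33% to 11.3%). Ces3a supplied 26.1% ± 1.99 (23.8% to 28.4%) and 35.7% ± 4.57 (30.6% to 40.6%), and for these 2 members the diets did not overlap. The smaller shares of Ces2a, Ces2c and Ces2g did not overlap between diets either. As shares add to 100%, a higher share of one member lowers the others. The 5 Ces1 members together gave 70.1% ± 1.86 against 59.3% ± 4.86, and the 4 Ces2 members 3.82% ± 0.24 against 5.01% ± 0.58 (SD, n = 4 each). Within the Ces2 sum, Ces2g supplied 16.5% ± 1.74 against 7.21% ± 0.74, and Ces2c 2.74% ± 1.02 against 7.38% ± 1.72 (SD, n = 4 each).

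**Figure D4:**
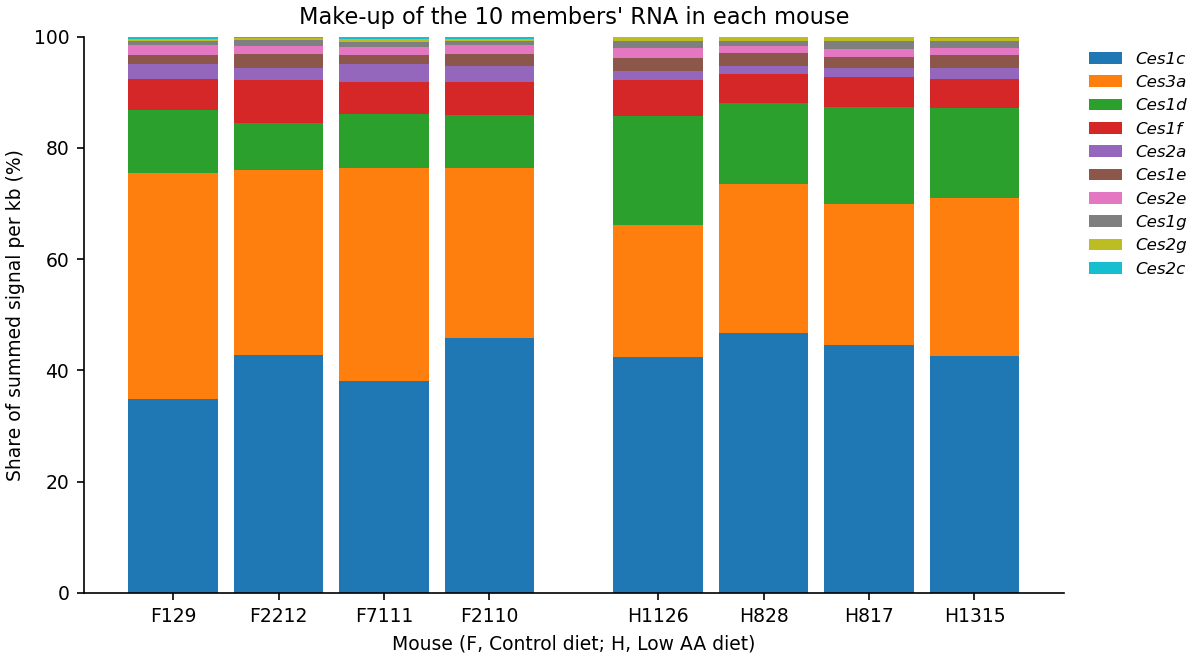
Share of the summed signal per kb (%) that each of the 10 members supplied, 1 stacked bar per mouse. The bars of the Low AA mice hold a larger Ces1d segment (14.6% to 19.7%, against 8.33% to 11.3%) and a smaller Ces3a segment than those of the Control mice.

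The genes whose values over the 8 mice were most like those of Ces2c, by the root mean square difference of log2 values centred on each gene's mean, were Mup12 (0.22), Mup20 (0.26) and Serpina1e (0.26). Mup12 and Mup20 encode major urinary proteins and Serpina1e an alpha-1-antitrypsin, all from multigene families made in the liver and secreted. All 3 fell on the Low AA diet, and their log2 fold changes were -1.65, -2.12 and -1.54 (limma adjusted p = 0.0395, 0.00355 and 0.0212). Genes picked to match Ces2c over these same mice were bound to fall with it, so this is no separate evidence. Among the carboxylesterases Ces2a came nearest to Ces2c (0.67), at rank 74 of all genes, while Ces2g (1.42) was at rank 11613. These ranks likewise follow in part from the direction of each gene's diet difference.

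Genes that share a role with the carboxylesterases were read from fixed lists. Of 15 other genes of neutral lipid hydrolysis that the table lists, 0 were called. An unadjusted p under 0.05 was found for 5 of them, all higher on the Low AA diet, where 11.8% of all genes had such a p. The list was written with earlier results known, had a median of 0.20 against 0.0023 for all genes, and is described here by counts alone. Mgll, the monoglyceride lipase, had 16890 to 22008 in Low AA and 11558 to 16795 in Control mice, a difference of 0.50 on the log2 scale (limma adjusted p = 0.160). Ddhd2, a phospholipase and triglyceride hydrolase, had 0.48 (limma adjusted p = 0.185). Of 15 genes of VLDL assembly and lipid droplets 0 were called and 3 had an unadjusted p under 0.05, all higher, a number near what the 11.8% of all genes gives, with a median of 0.13. The droplet protein Plin5 had 5481 to 6400 against 3062 to 4724, a log2 difference of 0.64 (limma adjusted p = 0.0811), and Fitm2, which acts in droplet formation, had 1474 to 1664 against 1054 to 1238, a log2 difference of 0.46 (limma adjusted p = 0.0849). For both genes the diets did not overlap.

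Among 14 other xenobiotic and ester hydrolases 0 were called and 1 had an unadjusted p under 0.05, with 7 log2 fold changes positive, 7 negative and a median of 0.0086. That gene was Ephx1, the microsomal epoxide hydrolase, at 6265 to 8358 in Low AA and 9190 to 12651 in Control mice, a log2 difference of -0.66 (limma adjusted p = 0.0653). Bphl, a further hydrolase, had -0.19 (limma adjusted p = 0.607). Of 13 transcription factors and partners of hepatic drug metabolism 0 were called and 0 had an unadjusted p under 0.05, with a median of 0.08. For Cebpa the log2 fold change was -0.35 (limma adjusted p = 0.521), for Ppara 0.23 (limma adjusted p = 0.538), for Nr1i3, which encodes CAR, 0.18 (limma adjusted p = 0.696) and for Nr1i2, which encodes PXR, 0.18 (limma adjusted p = 0.734). The KDEL receptors return proteins to the endoplasmic reticulum, and Kdelr2 and Kdelr1 had -0.09 and -0.07 (limma adjusted p = 0.761 and 0.825). Gusb, the beta-glucuronidase that egasyn binds, had 0.08 (limma adjusted p = 0.835). Of these 3 genes 0 were called and 0 had an unadjusted p under 0.05, and their median was -0.07.

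**Figure D5:**
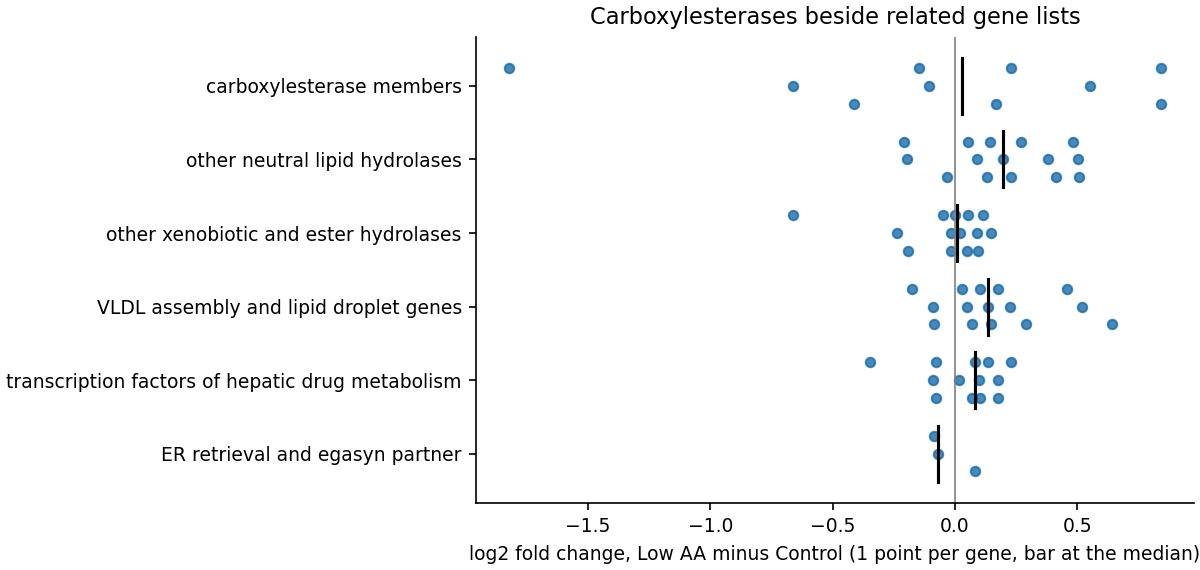
log2 fold changes (Low AA minus Control) of the 10 carboxylesterase members and of the 5 related lists, 1 point per gene, with a bar at each median. The members spread from -1.82 to 0.84 with a median of 0.03, and single genes of the other lists spread from -0.66 (Ephx1) to 0.64 (Plin5). The median bars of all lists lie between -0.07 and 0.20.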

How the data were processed

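Liver poly(A) RNA of 8 mice (4 Control, 4 Low AA, 1 column per mouse, matched by title) was analysed. The authors deposited a signal per gene and mouse, a whole number that appears to be a read count scaled and rounded, from gaps and doublings seen among its low values. It was not treated as a raw count, so the design for counts was not used. The deposited table also holds the authors' signed fold change, a score, and their FDR, a q-value, and neither was used. The submitters' processing notes name bcl2fastq 1.8.2, STAR 2.5.0a, RSEM 1.2.6, edgeR 3.10.5, R 3.2.1 and mm10, with no role or order. Totals after scaling do not give exact depth.

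Values were put on the log2(value + 1) scale and fitted in R 4.3.3 by limma 3.58.1, whose prior variance followed the mean. P-values were adjusted by the Benjamini-Hochberg method over 11784 genes. Single genes were also compared by exact permutation tests. Sequences were compared with Biopython 1.88, by global alignment of GENCODE coding sequences and RefSeq promoters, and figures were drawn with matplotlib 3.10.9. The members and lists were chosen with earlier results of these data known. Genes named were all Ces rows, called genes or else the 2 with the smallest unadjusted p of each list, Gusb, Nr1i2, Nr1i3 and Ppara, the 3 genes nearest to the member with the smallest p, and markers where 1 mouse stood apart. Saa1, Col1a1, Alas2, Sox9 and Krt19 fall outside this rule and were chosen after their values were seen. Alternatives were other pseudocounts (0.1 and 5), scalings, moderation, weights, an adjusted p under 0.1, the 8000 genes with the highest mean and each mouse left out.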

Additional observations from a re-analysis of the deposited data

Results flagged for a closer look

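Gap over range was taken on the log2 scale in 22 groups of 4 values, and scaled read counts are printed beside it. In 3 groups the gap of 1 mouse to the nearest other mouse was large against the whole range of its diet group (beyond Dixon's critical value for 4 samples). Chance flags about 1 in 20 groups. Control mouse F2212 stood above the other Control mice for Ces1e, at 3821 against 2203 to 2254 (gap over range 0.958). Low AA mouse H828 stood below the other Low AA mice for Ces1g, at 1264 against 2132 to 2360 (gap over range 0.837), and it was the lowest Low AA mouse in 9 of 10 members. Control mouse F2110 stood below the other Control mice for Ces3a, at 31676 against 50976 to 52262 (gap over range 0.9502).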

How the results depend on the processing

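The number of genes called moved from 47 to 19 with the 8000 genes of highest mean, to 30 with no mean-variance trend, to 161 with array quality weights and to 132 at an adjusted p under 0.1, and ranged from 16 to 77 with each mouse left out. The number of members called moved under the same settings from 2 to 1, 0, 4 and 4, and ranged from 0 to 2 with each mouse left out. Ces2c was called in 3 and Ces2g in 2 of 8 fits that leave out a mouse, and in 7 of 9 and 7 of 8 others. Over all alternatives limma adjusted p was 0.0204 to 0.0962 for Ces2c, 0.0186 to 0.127 for Ces2g, 0.0349 to 0.243 for Ces1d and 0.0418 to 0.272 for Ces2a, and Ces1d and Ces2a were called with array quality weights and at an adjusted p under 0.1. All 4 kept their direction in every alternative. The log2 fold change of Ces1f ranged from -0.27 to 0.047 with each mouse left out, and was above 0 without Control mouse F2212. At an adjusted p under 0.1, 1 ester hydrolase and 2 VLDL or lipid droplet genes were called, and 0 to 1 of each list with each mouse left out. The Ces1 minus Ces2 difference was -0.38 with medians over members, and 0.63 to 0.95 in the other alternatives. Members without overlap numbered 4 to 6 with each mouse left out. Leaving out a mouse cannot lower this count for any gene, and no share of all genes is given for these settings. The sums of Ces2c with Ces2d-ps and of Ces3a with Ces3b were chosen after seeing the data. No paired analysis was possible because mouse codes are not shared between the diets. With 4 mice a diet small changes cannot be told from none.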
